A study of Mus musculus with 18 samples.

Results

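The *Serpina3* cluster genes are 7 of the 21899 genes in the FPKM table of this series. They were taken by symbol, as *Serpina3b*, *Serpina3c*, *Serpina3f*, *Serpina3g*, *Serpina3k*, *Serpina3m* and *Serpina3n*, and all 7 were found once, in all 18 libraries. FPKM is the number of sequenced fragments of a gene per kilobase of its exons, scaled to the number of fragments in the library, so levels can be compared between genes. RNA was measured in liver, epididymal white adipose tissue (eWAT) and quadriceps (QU) muscle of male wild-type C57BL/6 mice aged 18 weeks. The CON group was kept on chow and tap water, and the HSD group on a high-salt diet with saline to drink for 12 weeks. Each tissue had 3 CON and 3 HSD libraries, each of a single tissue sample, and several mice gave more than 1 tissue. No transgene or other allele is given for any group.

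Serpins are protease inhibitors that present a flexible reactive centre loop as bait. A protease that cuts the loop is trapped in a covalent complex, and the residues of the loop decide which proteases are bound. Humans have a single SERPINA3, the acute-phase plasma protein α1-antichymotrypsin that the liver secretes, whereas the mouse locus has been duplicated into a row of genes with different loops. In the mouse, *Serpina3n* encodes an acute-phase inhibitor of leukocyte proteases and granzyme B, *Serpina3k* encodes contrapsin, a plasma inhibitor of trypsin-like proteases, and *Serpina3g* encodes an intracellular inhibitor of cathepsins.

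In GENCODE M21 (build GRCm38, mm10), the cluster lies on chromosome 12 from 104112724 to 104414329, a stretch of 301.6 kb with 14 *Serpina3* models, of which 10 are coding and 4 are pseudogenes. The coding genes that are not members, *Serpina3a*, *Serpina3i* and *Serpina3j*, are in the table and did not exceed 0.532 FPKM in any library. *Serpina3c* lies on the minus strand and the other 6 members on the plus strand. *Serpina3k* (104338486 to 104346144) lies inside the span of *Serpina3m* (104338486 to 104394257), and both share a first exon of 60 bases. Only 5 windows of 150 bases, the length of a read, were identical between the 2 genes, which was 0.262% of the windows of *Serpina3k* and 0.331% of those of *Serpina3m*. The other 5 members shared no such window with another gene.

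The coding stretch of the reactive centre loop is shown for all 7 members because it holds the bait residues of the inhibitor. Each stretch has 84 bases in exon 5 of the GENCODE M21 transcript and is written 5′ to 3′ on the coding strand. Lower case marks the hinge of 9 codons that precedes the loop, and capitals mark the bases after it, which include the bait residues.
Serpina3b: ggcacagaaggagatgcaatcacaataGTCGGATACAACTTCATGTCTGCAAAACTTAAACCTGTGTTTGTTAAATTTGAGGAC
Serpina3c: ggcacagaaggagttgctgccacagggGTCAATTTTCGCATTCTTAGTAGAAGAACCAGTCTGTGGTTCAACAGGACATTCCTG
Serpina3f: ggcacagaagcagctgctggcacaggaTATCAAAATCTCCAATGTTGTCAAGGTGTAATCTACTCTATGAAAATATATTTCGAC
Serpina3g: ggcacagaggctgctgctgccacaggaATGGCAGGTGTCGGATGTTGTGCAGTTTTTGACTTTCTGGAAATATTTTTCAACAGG
Serpina3k: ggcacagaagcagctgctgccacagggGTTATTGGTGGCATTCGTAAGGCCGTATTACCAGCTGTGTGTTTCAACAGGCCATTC
Serpina3m: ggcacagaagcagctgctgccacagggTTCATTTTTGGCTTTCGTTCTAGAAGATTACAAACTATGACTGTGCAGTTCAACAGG
Serpina3n: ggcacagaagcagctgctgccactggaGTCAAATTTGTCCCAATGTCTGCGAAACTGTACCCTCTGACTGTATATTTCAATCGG

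The stretches lie at chr12:104138665-104138748 (*Serpina3b*), chr12:104147304-104147387 on the minus strand (*Serpina3c*), chr12:104220245-104220328 (*Serpina3f*), chr12:104241072-104241155 (*Serpina3g*), chr12:104345269-104345352 (*Serpina3k*), chr12:104393769-104393852 (*Serpina3m*) and chr12:104413448-104413531 (*Serpina3n*). Between pairs of members, 66.7% to 100% of the 27 hinge bases were the same, against 17.5% to 56.1% of the 57 bases after it. These shares were counted position by position without gaps, so stretches of unlike length after the hinge match less. The whole coding sequences were aligned with gaps, so their identity is not on the same measure. The liver genes *Serpina3k* and *Serpina3m* were identical over the hinge and 91.1% identical over the whole coding sequence. After the hinge, 26 of their 57 bases matched. *Serpina3c* and *Serpina3n*, both high in eWAT, were 85.4% identical over the coding sequence and matched at 17 of 57 bases after the hinge. The longest frame of *Serpina3g* had 248 codons in the transcript used, and those of the other members had 417 to 445.

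The members were used in different tissues of CON mice. *Serpina3k* was a liver gene at 961 ± 640 FPKM (SD, n = 3), rank 37 of all genes by mean level in CON liver, and made up 92.9% to 96.6% of the summed FPKM of the 7 members in the CON liver libraries. In eWAT the leading members were *Serpina3n* at 183 ± 24.7 FPKM (rank 154) and *Serpina3c* at 98.8 ± 9.98 FPKM (rank 361). Together the 7 members summed to 1002 ± 659 FPKM in CON liver, 303 ± 37.2 FPKM in CON eWAT and 3.77 ± 1.62 FPKM in CON muscle. In muscle the highest value of any member in any library was 2.43 FPKM. The tissues were checked against their markers, and the summed hepatocyte, adipocyte and skeletal muscle lists were each highest in the 6 libraries of the tissue they mark.

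**Figure D1:**
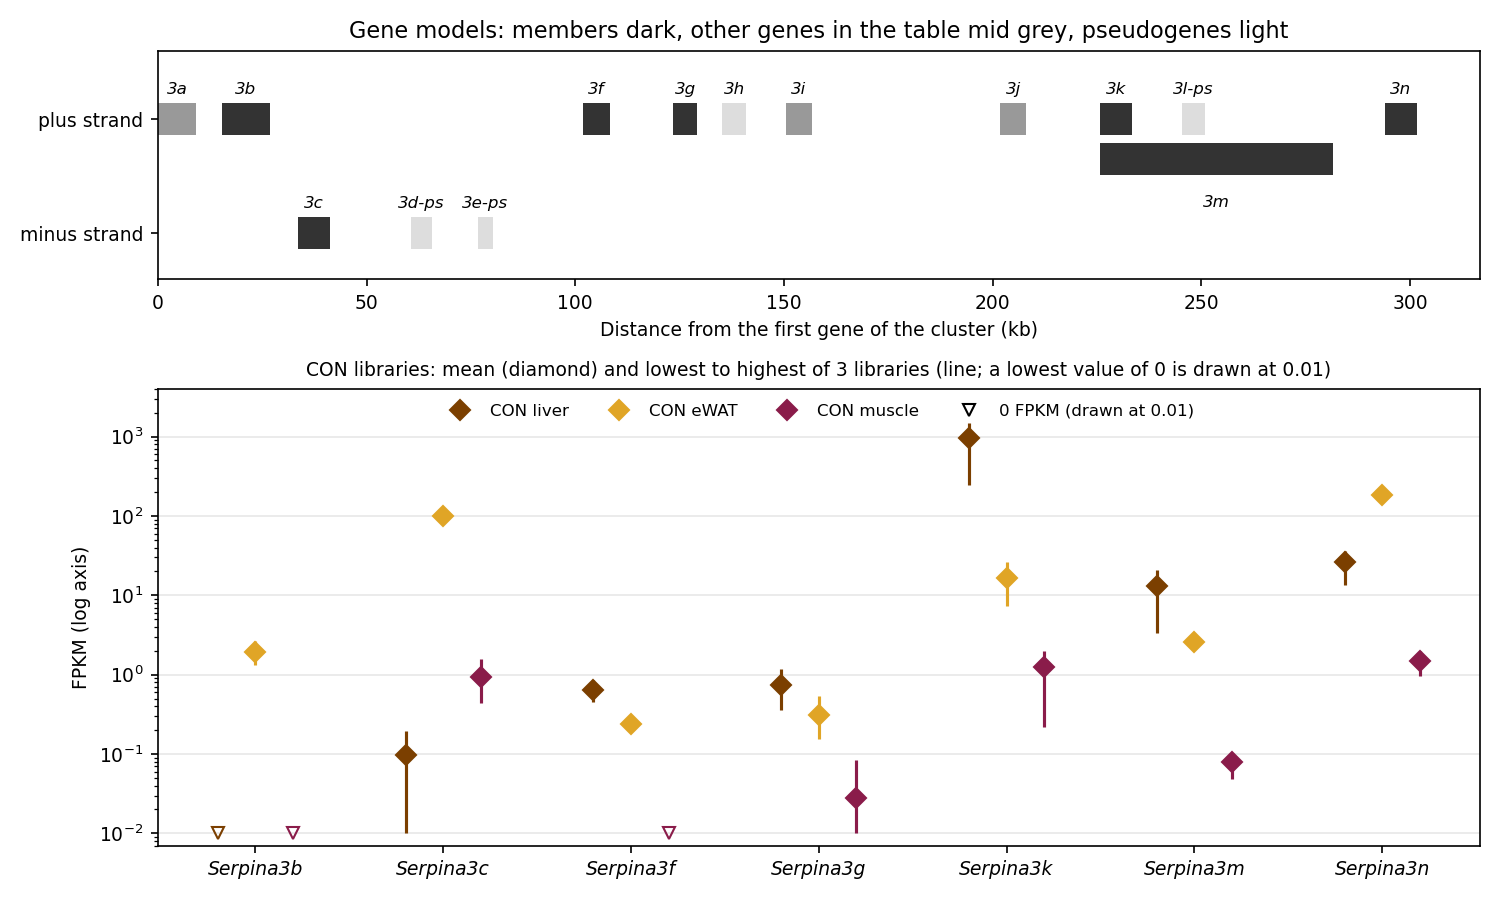
The upper panel places the 14 *Serpina3* gene models along the cluster in kb from its first gene, by strand, with members dark. The lower panel gives the FPKM (log axis) of each member in the 3 CON libraries of each tissue as a mean (diamond) and range (line), and shows *Serpina3k* highest in liver at 961 FPKM, *Serpina3n* highest in eWAT at 183 FPKM, and *Serpina3c* in eWAT at 98.8 FPKM.

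The tissues were compared by limma on log2(FPKM + 0.5) over the 9 CON libraries. A gene was called when its p, adjusted by Benjamini-Hochberg over all genes, was under 0.05 and its log2 difference was 1 or more in size. This scale understates differences of low genes. Between CON liver and CON eWAT, 5 of the 5 members tested were called, in 2 directions, where 69.4% of 12637 genes were called. *Serpina3b*, at 0 fragments in liver, passed the filter only through eWAT, so its direction here was fixed beforehand. *Serpina3c* had 7 fragments in all of CON liver, so its level in this comparison came from eWAT. *Serpina3k* was higher in liver by 5.63 ± 0.75 on the log2 scale (SE, limma adjusted p = 8.04e-05) and *Serpina3m* by 1.86 ± 0.53 (limma adjusted p = 0.00907). *Serpina3c*, *Serpina3n* and *Serpina3b* were higher in eWAT, with liver minus eWAT differences of -7.38 ± 0.27, -2.88 ± 0.36 and -2.26 ± 0.19 on the log2 scale (limma adjusted p = 4.90e-08, 4.79e-05 and 3.56e-06). The background of 69.4% means that a call between these tissues was common. A call higher in liver, as for *Serpina3k* and *Serpina3m*, was less common, at 7.26% of genes. The direction of *Serpina3c*, *Serpina3n* and *Serpina3b* was the common one, since 62.1% of genes were called lower in liver.

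*Serpina3n* was abundant in eWAT and moderate in liver. Its CON levels were 13.5, 35.7 and 29.6 FPKM in liver, 154, 198 and 196 FPKM in eWAT, and 1.54, 2.004 and 0.953 FPKM in muscle. The tissues did not overlap, which between CON liver and CON eWAT held for 84.1% of genes, and the order was eWAT, liver, muscle. *Serpina3c* was at 88.1, 108 and 100.5 FPKM in CON eWAT and at 0.784, 1.56 and 0.444 FPKM in CON muscle. In CON liver it had only 7 fragments in 3 libraries, at 0, 0.194 and 0.0988 FPKM. *Serpina3c* thus separated eWAT from liver by a ratio of mean FPKM of 1011, and *Serpina3n* by one of 6.96, although these genes have similar coding sequences.

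*Serpina3k* was at 247, 1482 and 1154 FPKM in CON liver, 15.9, 26.4 and 7.42 FPKM in CON eWAT, and 0.220, 2.01 and 1.48 FPKM in CON muscle. *Serpina3m* followed the same order at lower levels, with 3.36, 15.6 and 20.9 FPKM in liver, 2.14, 3.30 and 2.27 FPKM in eWAT and at most 0.104 FPKM in muscle. Both genes were lowest by far, within liver, in the library CON14L. In that library, 60.8% of all fragments came from mitochondrially encoded genes, and the 30 hepatocyte markers summed to 21982 FPKM against 80467 and 96450 FPKM in the other CON liver libraries. The part of these differences in the levels of the members was not tested.

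Hepatocyte markers were also present in eWAT. All 30 were above 0 in the CON eWAT libraries, and the median marker stood there at 0.785% of its level in CON liver, with a range from 0.287% to 5.22%. *Serpina3k* in CON eWAT was at 1.72% of its liver level, inside that range. *Serpina3m* was at 19.4% and *Serpina3n* at 696% of the liver level, both above the range. In muscle, *Serpina3n* was at 0.819% and *Serpina3c* at 0.942% of the eWAT level, where the median of 14 adipocyte markers was at 0.826%. The part of cells of another tissue in these levels was not tested.

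*Serpina3b*, *Serpina3f* and *Serpina3g* were low everywhere. *Serpina3b* was found only in eWAT, at 2.62, 1.31 and 1.92 FPKM in the CON libraries, from 41 to 87 fragments each, and had 0 fragments in all 12 libraries of liver and muscle. A count of 0 allows up to 3 fragments per library, so the CON level in eWAT was at least 12.4-fold higher than in liver and at least 16.2-fold higher than in muscle. *Serpina3f* was at 0.451 to 0.859 FPKM in CON liver and 0.202 to 0.300 FPKM in CON eWAT, which did not overlap, and at 0 fragments in muscle. *Serpina3g* was at 0.364 to 1.18 FPKM in CON liver and 0.157 to 0.533 FPKM in CON eWAT, which overlapped, and had 2 fragments in all CON muscle libraries together. *Serpina3f* and *Serpina3g* had a mean below 0.5 FPKM over the 9 CON libraries and were not tested between tissues.

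Between CON liver and CON muscle, 4 members were called, where 50.1% of genes were called. The fifth member tested, *Serpina3b*, had 0 fragments in both tissues and passed the filter only through eWAT. *Serpina3k*, *Serpina3m* and *Serpina3n* were higher in liver, by 8.94 ± 0.75, 4.24 ± 0.53 and 3.67 ± 0.36 on the log2 scale, and *Serpina3c* was higher in muscle, with a difference of -1.20 ± 0.27 (limma adjusted p = 7.73e-06, 8.85e-05, 1.78e-05 and 0.00285). Between CON eWAT and CON muscle, 5 of 5 were called, all higher in eWAT, where 46.9% of genes were called higher, and *Serpina3b*, at 0 fragments in muscle, again entered only through eWAT. The differences ranged from 2.26 ± 0.19 for *Serpina3b* to 6.55 ± 0.36 for *Serpina3n*, with limma adjusted p from 2.20e-07 to 0.00308.

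In HSD mice, liver and eWAT were not separated by *Serpina3n* when all libraries were kept. Its level was 63.1, 50.03 and 36.5 FPKM in HSD liver and 98.2, 35.9 and 70.6 FPKM in HSD eWAT, and these groups overlapped. The overlap came from 1 eWAT library, HS3W at 35.9 FPKM, which stood apart as described below. HS2W and HS5W, at 98.2 and 70.6 FPKM, were above every HSD liver library. The difference between HSD liver and HSD eWAT was -0.37 on the log2 scale, with a 95% interval from -1.20 to 0.46 (limma adjusted p = 0.372), where 68.4% of genes were called. The difference for *Serpina3k* between HSD eWAT and HSD muscle was 0.19, with an interval from -1.54 to 1.91 (limma adjusted p = 0.838). *Serpina3m* differed there by 0.98, just under the threshold of 1 (limma adjusted p = 0.0126). In this comparison 58.7% of genes were called.

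**Figure D2:**
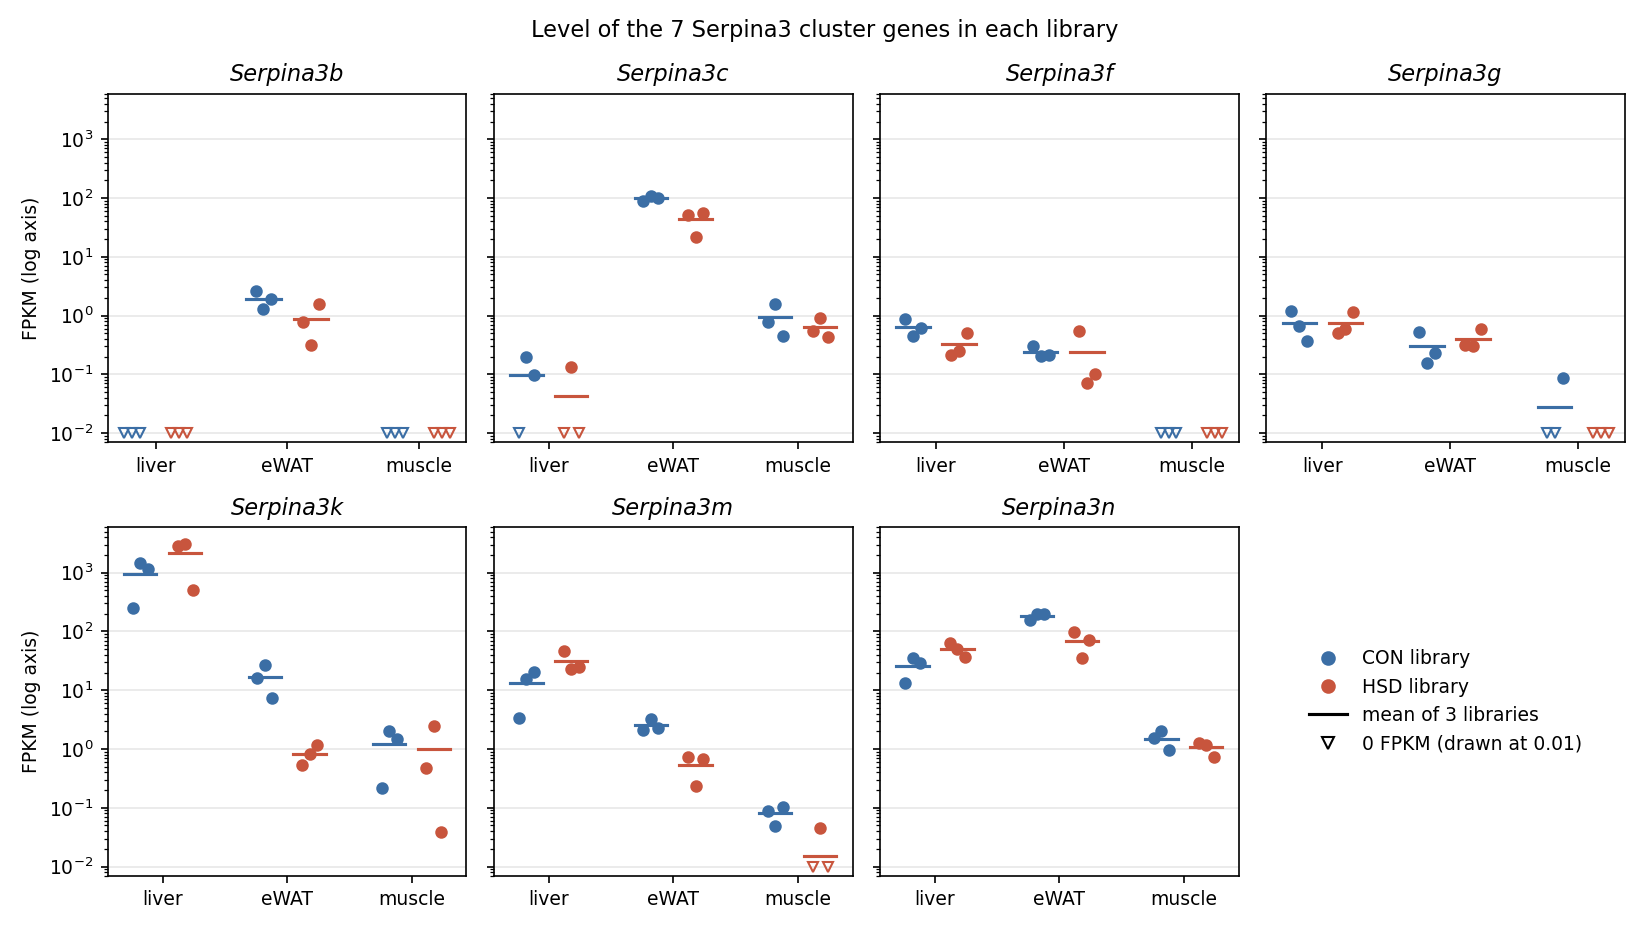
Each panel gives 1 member, with FPKM on a log axis for the CON (blue) and HSD (red) libraries of the 3 tissues, a bar at the mean of 3 libraries and open triangles for libraries at 0. *Serpina3k* in eWAT lies at 7.42 to 26.4 FPKM in CON and 0.534 to 1.15 FPKM in HSD, and *Serpina3n* in liver at 13.5 to 35.7 FPKM in CON and 36.5 to 63.1 FPKM in HSD.

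The effect of the diet was tested within each tissue over its 3 CON and 3 HSD libraries. In eWAT, all 5 members that passed the filter of a mean of 0.5 FPKM had a lower mean in HSD, and none was called by limma, where 0% of 13740 genes were called. At an unadjusted p under 0.05 there were 4 of the 5 members, all lower in HSD, where 7.55% of genes were lower at that p, and limma voom on recovered fragments gave the same counts of 0 and 4. In the same 4 members every HSD library was below every CON library, where this held for 12.4% of all genes tested. In bulk tissue, fewer cells of a type and less RNA per cell cannot be told apart.

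*Serpina3k* differed most. Its eWAT levels were 15.9, 26.4 and 7.42 FPKM in CON and 0.534, 0.830 and 1.15 FPKM in HSD, a difference of -3.53 ± 0.46 on the log2 scale (limma adjusted p = 0.0928). The groups were far apart, and the HSD values came from 15 to 31 fragments per library. The sum of the hepatocyte markers was lower in the same libraries, at 288, 449 and 163 FPKM in CON and 25.0, 17.9 and 14.7 FPKM in HSD. *Serpina3k* made up 4.55% to 5.88% of that sum in CON and 2.13%, 4.64% and 7.84% in HSD, so that per hepatocyte marker the groups overlapped. In the CON eWAT libraries, 18 to 28 of the 30 markers were at 1 FPKM or more, against 3 to 7 in HSD, and 2 to 8 were at 0 in the HSD libraries. Their part in the difference of *Serpina3k* was not tested.

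*Serpina3m* was at 2.14, 3.30 and 2.27 FPKM in CON eWAT and 0.725, 0.236 and 0.667 FPKM in HSD eWAT. The difference was -1.57 ± 0.28 (limma adjusted p = 0.121), and the groups did not overlap. As a share of the hepatocyte marker sum, *Serpina3m* was at 0.735% to 1.39% in CON and 1.32% to 4.54% in HSD, and the groups overlapped.

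*Serpina3n* and *Serpina3c* were the members with the deepest data in eWAT, with at least 600 fragments in every library. *Serpina3n* was at 154, 198 and 196 FPKM in CON and 98.2, 35.9 and 70.6 FPKM in HSD, a difference of -1.52 ± 0.37 (limma adjusted p = 0.163). *Serpina3c* was at 88.1, 108 and 100.5 FPKM in CON and 52.1, 22.04 and 55.8 FPKM in HSD, a difference of -1.29 ± 0.37 (limma adjusted p = 0.201). *Serpina3b* was at 2.62, 1.31 and 1.92 FPKM in CON and 0.779, 0.314 and 1.55 FPKM in HSD, which overlapped, and differed by -0.89 ± 0.40 (limma adjusted p = 0.325). All 3 genes were lowest in the library HS3W.

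HS3W stood apart from the other eWAT libraries. Its 16 epididymal epithelium markers summed to 26212 FPKM, against at most 14.3 FPKM in the other 5, and its adipocyte markers to 8032 FPKM against 18679 to 25636 FPKM. Without HS3W, 3 of the 5 members tested were called lower in HSD eWAT, where 0.989% of 13245 genes were called lower. These were *Serpina3k* (-3.54 ± 0.51), *Serpina3m* (-1.34 ± 0.20) and *Serpina3n* (-1.12 ± 0.18), with limma adjusted p = 0.0255, 0.0269 and 0.0300. *Serpina3c* had an adjusted p of 0.0227 in that limma fit and a difference of -0.86 ± 0.10, under the threshold of 1. *Serpina3b* differed by -0.56 ± 0.31 (limma adjusted p = 0.291).

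Set against the adipocyte markers of the same library, the CON and HSD groups did not overlap for *Serpina3n* and *Serpina3c*. For how many of all genes this held was not counted. The adipocyte sum itself was at 128%, 42.1% and 134% of its CON mean in HS2W, HS3W and HS5W, so the shares also hold changes of the sum. *Serpina3n* was at 0.781% to 1.06% of the adipocyte marker sum in CON and 0.276% to 0.447% in HSD. *Serpina3c* was at 0.446% to 0.577% in CON and 0.213% to 0.274% in HSD. *Cfd* (adipsin), named after its values were seen, made up 50.07% to 54.2% of the adipocyte sum in CON and 56.2% to 60.4% in HSD. With *Cfd* left out the groups still did not overlap, at 1.71% to 2.13% in CON and 0.695% to 1.02% in HSD for *Serpina3n* and 0.9749% to 1.16% and 0.517% to 0.627% for *Serpina3c*. The sum also holds *Lep* (leptin), which itself was at a mean of 402 FPKM in CON and 174 FPKM in HSD, and *Adipoq* (adiponectin), at 1974 to 2129 FPKM in CON and 1937, 692 and 2059 FPKM in HSD, lowest in HS3W. The 13 macrophage markers summed to 605 to 902 FPKM in CON eWAT and 268 to 586 FPKM in HSD eWAT, and their part in the levels of the members was not tested.

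**Figure D3:**
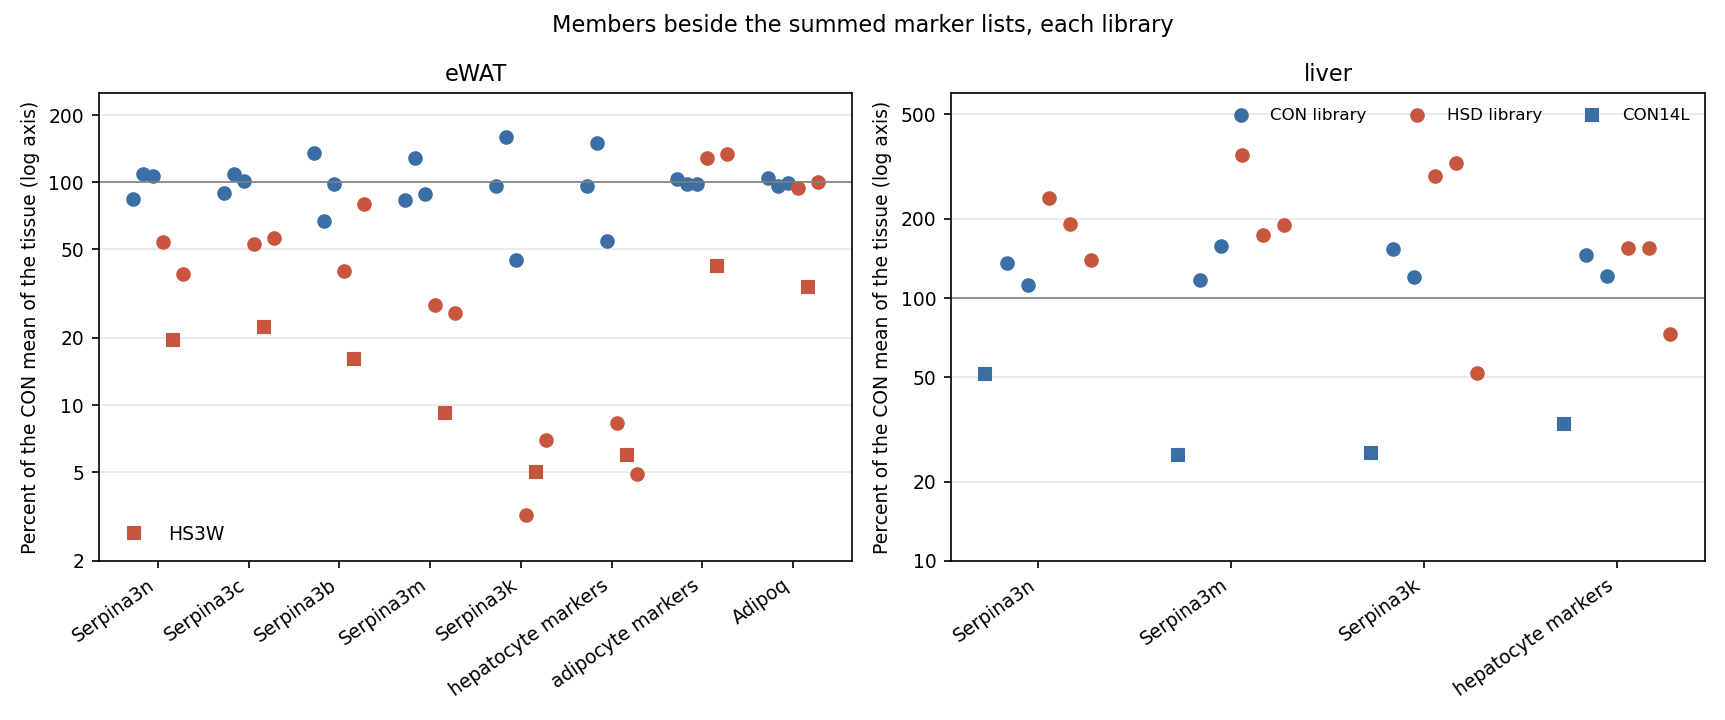
Each point is 1 library, as a percent of the CON mean of its tissue (log axis), for members and for summed marker lists in eWAT (left) and liver (right), with squares for HS3W and CON14L. In HSD eWAT, *Serpina3k* lies at 3.23% to 6.95% and the hepatocyte sum at 4.90% to 8.34% of the CON mean, whereas *Serpina3n* lies at 19.7% to 53.7% and the adipocyte sum at 42.1% to 134%.

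In liver, none of the 4 members tested was called, where 0% of 10317 genes were called, and none had an unadjusted p under 0.05 by limma, where 5.74% of genes had one, or by limma voom. The means of *Serpina3k*, *Serpina3m* and *Serpina3n* were higher in HSD, on the other side than in eWAT. *Serpina3n* was at 13.5, 35.7 and 29.6 FPKM in CON and 63.1, 50.03 and 36.5 FPKM in HSD, a difference of 0.99 ± 0.45 with a 95% interval from -0.07 to 2.04 (limma adjusted p = 0.764). *Serpina3m* was at 3.36, 15.6 and 20.9 FPKM in CON and 46.6, 23.1 and 25.2 FPKM in HSD, a difference of 1.48 ± 0.66 with an interval from -0.06 to 3.02 (limma adjusted p = 0.764). For both genes every HSD library was above every CON library, where this held for 8.62% of genes. The nearest libraries were close together, at 35.7 and 36.5 FPKM for *Serpina3n* and 20.9 and 23.1 FPKM for *Serpina3m*. As a share of the hepatocyte marker sum, the groups overlapped for both genes. *Serpina3n* was at 0.0615%, 0.0370% and 0.0367% of that sum in CON and 0.0616%, 0.0485% and 0.0757% in HSD, and *Serpina3m* at 0.0153% to 0.0259% in CON and 0.0224% to 0.0523% in HSD. Of the 30 hepatocyte markers, 3 were higher in HSD liver at an unadjusted p under 0.05 by limma and none lower, with a median difference of 0.95, and their part in the differences of the members was not tested.

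*Serpina3k* was at 247, 1482 and 1154 FPKM in CON liver and 2797, 3129 and 499 FPKM in HSD liver. The groups overlapped, and the difference was 1.12 ± 0.95 (limma adjusted p = 0.764). Its lowest libraries, CON14L and HS5L, were also those with the lowest hepatocyte sums, 21982 and 48192 FPKM, and the largest shares of mitochondrially encoded fragments, 60.8% and 44.4%, against 80467 to 103208 FPKM and 15.4% to 37.8% in the other 4. *Serpina3g* was at 1.18, 0.654 and 0.364 FPKM in CON and 0.501, 0.595 and 1.17 FPKM in HSD, a difference of 0.04 ± 0.34, whose sign was negative after median-ratio scaling and with mitochondrial genes left out. *Serpina3b*, *Serpina3c* and *Serpina3f* were below the filter in liver.

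The liver differences depended on single libraries. Without CON14L, *Serpina3m* differed by 0.72 ± 0.41, *Serpina3n* by 0.58 ± 0.37 and *Serpina3k* by 0.32 ± 0.83 (limma adjusted p from 0.946 to 0.990). Without HS5L, the differences were 1.602 ± 0.77, 1.19 ± 0.49 and 1.98 ± 0.86 (limma adjusted p from 0.356 to 0.368). With the libraries of the study's figures, without CON16L and HS5L, they were 1.88 ± 0.73, 1.47 ± 0.48 and 2.47 ± 0.91 (limma adjusted p = 0.124, 0.0951 and 0.114). When mitochondrially encoded genes were left out, the differences were 1.14 for *Serpina3m*, 0.62 for *Serpina3n* and 0.75 for *Serpina3k*. The median of all genes moved from 0.13 to -0.20, and relative to that median *Serpina3m* stood at 1.35 in both cases and *Serpina3n* at 0.86 before and 0.83 after. After quantile normalization the values relative to the median were 1.21 for *Serpina3m* and 0.61 for *Serpina3n*. Limma with array weights, which gives discordant libraries less weight, called *Serpina3k*, *Serpina3m* and *Serpina3n* higher in HSD liver, where it called 6.9% of genes higher. CON16L also stood apart, with skeletal muscle markers summing to 5839 FPKM against at most 9.60 FPKM in the other liver libraries, and without it *Serpina3n* differed by 1.26 ± 0.50 and *Serpina3m* by 1.75 ± 0.71 (both limma adjusted p = 0.506).

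In muscle, none of the 3 members tested was called, where 0.323% of 10834 genes were called, and none had an unadjusted p under 0.05 by limma, where 16.3% of genes had one, or by limma voom. *Serpina3n* was at 1.54, 2.004 and 0.953 FPKM in CON and 1.27, 1.19 and 0.742 FPKM in HSD, a difference of -0.33 with a 95% interval from -0.82 to 0.16. *Serpina3c* differed by -0.29 (interval from -0.90 to 0.33) and *Serpina3k* by -0.40 (interval from -1.75 to 0.94). *Serpina3k* was highest in the libraries CON71M, CON72M and HS3M, at 2.01, 1.48 and 2.43 FPKM, which also had the largest hepatocyte sums, 53.7, 24.6 and 41.0 FPKM against 2.85 to 9.82 FPKM in the other 3. At these levels, 1 to 65 fragments per library, only large differences could be seen.

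**Figure D4:**
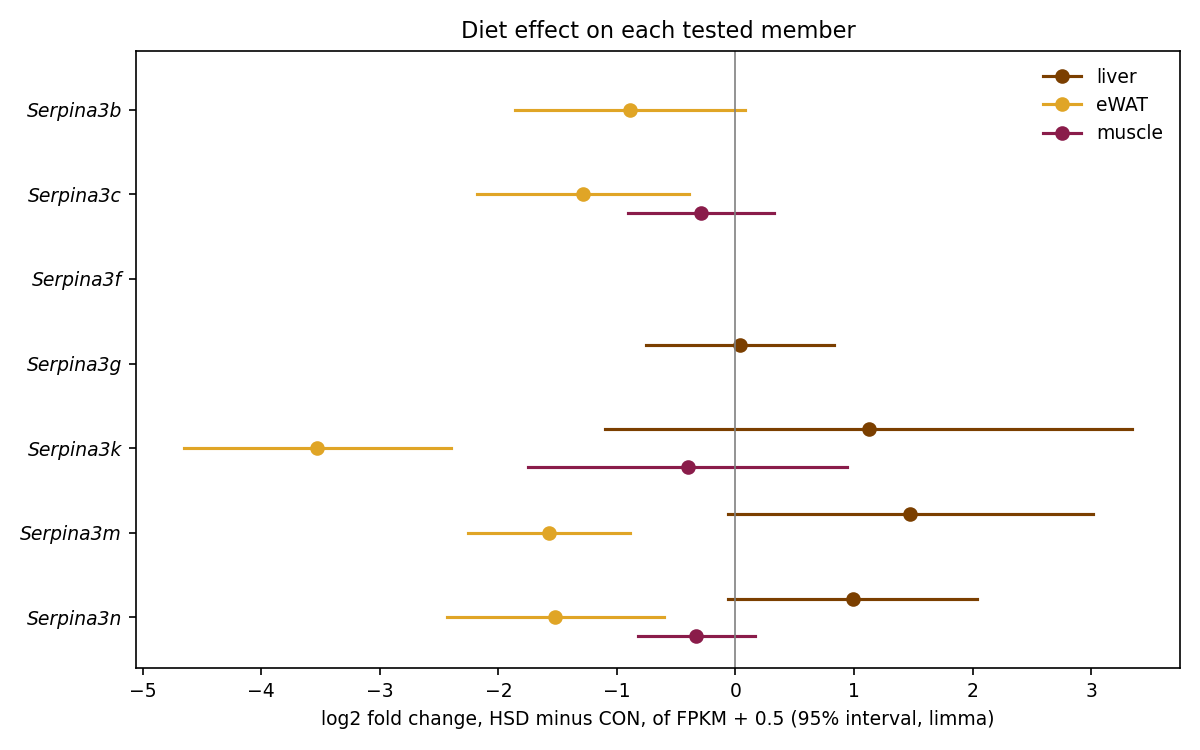
Points give the log2 difference of HSD minus CON in FPKM + 0.5 from limma for each member that passed the filter, with 95% intervals, by tissue. The eWAT estimates run from -3.53 to -0.89 and the liver estimates from 0.04 to 1.48, with wide liver intervals that all include 0.

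The diet effect was then compared between tissues, as a difference of differences in 1 limma model of all 18 libraries. Between liver and eWAT, 2 of the 4 members tested were called, where 0.788% of 13067 genes were called. The liver minus eWAT difference was 3.05 ± 0.65 for *Serpina3m* (limma adjusted p = 0.0415) and 2.51 ± 0.54 for *Serpina3n* (limma adjusted p = 0.0439). It was 4.65 ± 1.16 for *Serpina3k* (limma adjusted p = 0.0877) and 1.15 ± 0.45 for *Serpina3c* (limma adjusted p = 0.278). Both calls were near the threshold. Over the alternative settings that kept all libraries or the study's libraries, the adjusted p ranged from 0.00903 to 0.206 for *Serpina3m* and from 0.00553 to 0.0980 for *Serpina3n*, and leaving out any of 15 of the 18 libraries took away at least 1 of the 2 calls, the exceptions being CON16L, HS5L and HS5W. Of these 15 libraries, 12 left 0 members called and 3 left 1. Between liver and muscle and between eWAT and muscle no member was called, where 0.0612% and 0% of genes were called. At an unadjusted p under 0.05 there were 2 and 4 of the 4 members by limma, where 7.95% and 8% of genes had one, and 0 and 0 by limma voom. *Serpina3m* had at most 2 fragments in a muscle library and *Serpina3c* at most 5 in a liver library, so their differences of differences with those tissues hold little beyond the diet effect of the other tissue.

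Genes of related function from lists were described in the same fits. In eWAT, no gene of these lists was called. Of 7 other serpins of chromosome 12 tested, 5 were lower at an unadjusted p under 0.05 and none higher, where 7.55% of all genes were lower. The median difference of these 7 serpins was -2.78 against 0.08 over all genes. The widest was *Serpina1e*, which encodes an α1-antitrypsin of plasma, at a mean of 23.4 FPKM in CON and 0.564 FPKM in HSD. Of 24 genes of the acute-phase and IL6-STAT3 response, 12 were lower and none higher, with a median of -0.65, and *Hpx*, which encodes the haem-binding plasma protein hemopexin, was at 7.62 FPKM in CON and 0.607 FPKM in HSD. Both lists hold genes that hepatocytes use, and 25 of 27 hepatocyte markers were lower at the same p, with a median of -2.22. Without HS3W, 5 of 5 other chromosome 12 serpins, 6 of 24 acute-phase genes and 17 of 28 hepatocyte markers were called lower, where 0.989% of all genes were.

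Of the possible upstream signals, 2 of 32 genes of the interferon gamma response were lower in eWAT and 1 higher at that p, where 7.55% of genes were lower, and 1 of 16 glucocorticoid response genes was lower and 1 higher. The 2 lower genes, named after their values were seen, were *Irf7* at 10.7 FPKM in CON and 6.65 FPKM in HSD and *Gbp3* at 18.7 FPKM in CON and 7.81 FPKM in HSD (limma adjusted p = 0.214 and 0.275). *Gbp2*, a guanylate-binding protein induced by interferon, did not pass that p, at 37.6 FPKM in CON and 19.7 FPKM in HSD (limma adjusted p = 0.304), and *Sgk1*, a kinase induced by corticosteroids, was at 16.8 FPKM in CON and 27.1 FPKM in HSD (limma adjusted p = 0.198). Of the 15 proteases that serpins can bind or that share their pathways, 7 were lower and none higher, led by *F2*, prothrombin, at 1.70 FPKM in CON and 0.0437 FPKM in HSD, a gene of hepatocytes. Of the 5 plasma serpins encoded elsewhere, 2 were lower, with *Serpinc1*, antithrombin, at 0.993 FPKM in CON and 0.105 FPKM in HSD.

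In liver, no gene of these lists was called, and 5.74% of all genes tested had an unadjusted p under 0.05 by limma in either direction. Of 28 acute-phase genes, 1 was higher and none lower at an unadjusted p under 0.05, with a median of 0.59 against 0.13 over all genes. That gene was *Lbp*, which encodes the lipopolysaccharide-binding protein, at 5.85 FPKM in CON and 12.8 FPKM in HSD (limma adjusted p = 0.764). None of 10 other chromosome 12 serpins passed that p, and *Serpina6*, which encodes the corticosteroid-binding globulin, was at 68.2 FPKM in CON and 124 FPKM in HSD with groups that did not overlap. Of 6 plasma serpins encoded elsewhere, 1 was higher, *Serpina7*, the thyroxine-binding globulin, at 9.15 FPKM in CON and 182 FPKM in HSD (limma adjusted p = 0.677). Of 28 interferon gamma response genes, 5 were lower, where 1.96% of all genes were, among them *Gbp3* at 2.71 FPKM in CON and 0.906 FPKM in HSD. Of 12 macrophage markers tested, 4 were also lower and none higher, with a median of -0.75, and *Clec4f*, a Kupffer cell lectin, was at 20.04 FPKM in CON and 7.83 FPKM in HSD, and their part in the interferon genes was not tested. At the same p, 2 of 16 glucocorticoid response genes were higher, with *Pck1*, a gluconeogenic enzyme, at 933 FPKM in CON and 2009 FPKM in HSD. Of 8 proteases, 2 were higher, with *Ctsh*, cathepsin H, at 9.71 FPKM in CON and 21.2 FPKM in HSD.

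In muscle, the glucocorticoid response list had 1 gene of 15 called, *Fbxo32*, a ubiquitin ligase of muscle atrophy, which rose by 1.33 ± 0.19 on the log2 scale (limma adjusted p = 0.0213), while *Sgk1* of the same list differed by -0.77 ± 0.13 (limma adjusted p = 0.0334), under the threshold of 1. No gene was called among 16 acute-phase, 28 interferon gamma response, 9 protease, 3 chromosome 12 serpin and 3 other plasma serpin genes. Of the marker lists, *Myh1* and *Myh2*, myosins of fast fibres, and *C1qa*, a complement gene of macrophages, were called lower in HSD muscle, by -1.01 ± 0.19, -1.06 ± 0.18 and -1.07 ± 0.15.

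Likeness of pattern was described by Pearson's r of log2(FPKM + 0.5) over the 18 libraries, among 11742 genes with a mean of at least 1 FPKM. The libraries of a tissue share that tissue, so r over all 18 is mostly tissue difference. The genes most like *Serpina3k* were *Serpina1b* (r = 0.996), *Ahsg* (r = 0.995) and *Serpina1e* (r = 0.994). Those most like *Serpina3m* were *Cdh2* (r = 0.972), *Cyp2c29* (r = 0.971) and *Gys2* (r = 0.969). For *Serpina3c* they were *Apcdd1* (r = 0.998), *Lep* (r = 0.998) and *Tcaf1* (r = 0.997), and for *Serpina3n* *Sntb1* (r = 0.987), *Bcar3* (r = 0.987) and *C130074G19Rik* (r = 0.986). The liver and the eWAT members had no gene in common among these 3, which follows from their tissues and is no separate result.

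After the mean of each tissue was subtracted, which leaves differences between the 6 libraries of a tissue, *Serpina3k* was most like *Serpina1b* (r = 0.982), *Ahsg* (r = 0.974) and *Serpina1a* (r = 0.963), all secreted products of hepatocytes. Among the genes most like *Serpina3m* were *Mup22* (r = 0.934) and *Bhmt2* (r = 0.927). *Serpina3c* was most like *Apcdd1* (r = 0.934), *Ppp1r3d* (r = 0.930) and *Cdk14* (r = 0.928). *Serpina3n* was most like *Lbp* (r = 0.928), *Dgat2* (r = 0.908) and *Anxa6* (r = 0.907). These values hold library quality as well as diet, and n is 18 for each.

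The promoters of *Serpina3c* and *Serpina3n* are shown because both genes were high in eWAT, whereas in liver *Serpina3n* was at 13.5 FPKM or more and *Serpina3c* at 0.194 FPKM or less, and those of *Serpina3f* and *Serpina3b* because these genes were low. RefSeq promoters (build GRCm38.p6) of 300 bases, 250 before and 50 after the start, were matched for 5 of the 7 members, and none was matched for *Serpina3k* and *Serpina3m*. The 150 bases before the start are printed 5′ to 3′ on the strand of the gene. Capitals mark a match to ACANNNTGT, the core of the element bound by glucocorticoid and androgen receptors.
Serpina3c: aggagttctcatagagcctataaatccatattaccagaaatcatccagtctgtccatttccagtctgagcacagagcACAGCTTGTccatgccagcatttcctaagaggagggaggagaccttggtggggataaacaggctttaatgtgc
Serpina3n: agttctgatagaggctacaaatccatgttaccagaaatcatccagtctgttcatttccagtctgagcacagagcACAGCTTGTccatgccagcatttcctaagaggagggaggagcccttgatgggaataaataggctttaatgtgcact
Serpina3f: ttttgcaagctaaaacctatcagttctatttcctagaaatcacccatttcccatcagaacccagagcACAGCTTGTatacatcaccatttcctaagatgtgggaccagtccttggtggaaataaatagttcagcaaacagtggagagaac
Serpina3b: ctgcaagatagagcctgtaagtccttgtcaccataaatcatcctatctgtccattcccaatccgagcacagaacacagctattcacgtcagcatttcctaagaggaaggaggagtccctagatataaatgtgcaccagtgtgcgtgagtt

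These stretches lie at chr12:104153873-104154022 on the minus strand (*Serpina3c*), chr12:104406558-104406707 (*Serpina3n*), chr12:104214394-104214543 (*Serpina3f*) and chr12:104127846-104127995 (*Serpina3b*). The promoters of *Serpina3c* and *Serpina3n* were 89.9% identical (275 of 306 aligned columns), and all other pairs of the 5 were 40.9% to 68.9% identical. On both strands of the 250 bases before the start, ACANNNTGT was found once in each of *Serpina3c*, *Serpina3n* and *Serpina3f*, at 73, 76 and 83 bases from the start, and in neither *Serpina3b* nor *Serpina3g*. ACANNNTGT is present in 5.84% of 32851 RefSeq promoters of the same length. The window before the start of *Serpina3g* ends at 104236146, whereas its GENCODE M21 model begins only at 104236245. The windows of the other genes end nearer to their models. The motif matches of *Serpina3g* and its promoter identities of 40.9% to 42.5% therefore describe a stretch further upstream, and the part of this offset was not tested. TTCNNNGAA, the STAT motif, was found in *Serpina3f* and *Serpina3g* and is present in 7.02% of promoters of the same length, and TTGCNNAA, a C/EBP motif, in *Serpina3b* and *Serpina3f* (9.56%). No matches overlapped each other. *Serpina3f*, which holds the first motif too, was at most 0.859 FPKM in any library. A match describes these letters only and is not a measured binding site.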

How the data were processed

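Total RNA of 18 libraries, 3 per tissue and diet, was sequenced after rRNA depletion by the authors. They trimmed reads with cutadapt 1.9.3 and aligned them with hisat2 2.0.4 to mm10. Their paper names cuffdiff and an Ensembl annotation (release not given in the sources used here) for FPKM per gene. Whether the deposited FPKM came from cuffdiff was not tested. The submitters' notes also name HTSeq 0.9.1, with no role. At GENCODE M21 exon lengths, 18330 of 18822 genes above 0 gave whole fragments (within 0.01) in every library, and another length did so for 492. Libraries held 7628071 to 16637489 fragments.

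Genes with a mean of at least 0.5 FPKM were tested by limma 3.58.1 (R 4.3.3) on log2(FPKM + 0.5) with a variance trend: diet within each tissue, tissues over the CON libraries, and the difference of diet effects over all 18. Calls needed a Benjamini-Hochberg adjusted p under 0.05 over all genes and, except for differences of effects, an absolute log2 change of at least 1. Intervals are 95% intervals of limma. A count of 0 was taken to allow 3 fragments, which covers counting error only. DESeq2, the authors' tool, was not run on FPKM. On simulated libraries, 93.5% (liver, 10302 genes), 95.5% (eWAT, 13690 genes) and 92.5% (muscle, 10792 genes) of 200 changed genes were called. The simulation gave every gene the same spread, changes above the threshold and no library that stood apart. These shares therefore check the procedure and do not tell how many changes the real libraries could show.

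Tissue and diet came from the labels, which do not say whether libraries of a group were handled apart, so p-values measure the spread between these samples. In muscle, same-numbered CON and HSD libraries deviated together (r = 0.38, 0.18 and 0.18, each over the 0.1 set for pairing), and in liver and eWAT not all did. A muscle pair of unlike numbers, CON replicate 3 and HSD replicate 2, also had r = 0.18. CON and HSD libraries are of different mice, so these r do not establish a pairing. The printed values come from fits without the replicate number, which entered as a block only in an alternative. Alternatives changed the pseudocount, filter, scaling, weights, block, counts and libraries. The study's figures used 15 of the libraries, without CON16L, HS5L and HS5W. Members and lists were chosen with earlier results of these data known. All 7 members were named, with, per list, the genes called or else the largest rise and fall without overlap, and the 3 genes most like each member of at least 1 FPKM. Of the genes this rule gives, 1 is not reported here.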

Additional observations from a re-analysis of the deposited data

Results flagged for a closer look

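The diet effect on *Serpina3m* differed between liver and eWAT by 3.05 on the log2 scale and that on *Serpina3n* by 2.51, by limma's test of the difference itself over the 18 libraries (adjusted p = 0.0415 and 0.0439, 3 libraries per group). In this test 0.788% of all genes were called. Leaving out any of 15 of the 18 libraries took away at least 1 of the 2 calls, and 12 of them left 0. Both calls were also lost with voom, after median-ratio scaling and without a filter. In all 3 HSD libraries of liver both genes were above all 3 CON libraries, where this held for 8.62% of genes. In all 3 of eWAT they were below, where this held for 12.4% of genes. As a share of the hepatocyte marker sum the liver groups overlapped, at 0.0367% to 0.0615% in CON and 0.0485% to 0.0757% in HSD for *Serpina3n* and 0.0153% to 0.0259% and 0.0224% to 0.0523% for *Serpina3m*. CON14L, the lowest CON liver library for both genes, had 60.8% mitochondrially encoded fragments, and hepatocyte markers in eWAT summed to 163 to 449 FPKM in CON and 14.7 to 25.0 FPKM in HSD. Their part in these differences was not tested.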

How the results depend on the processing

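The number of members called for the diet effect was 0 in each tissue and rose to 3 in liver and 3 in eWAT with array weights. Leaving out a library gave 0 to 0 calls in liver and muscle and 0 to 3 in eWAT, the 3 without HS3W. For CON liver against CON eWAT it was 5, and 3 with HSD libraries in their place, and for eWAT against muscle 5 and 2; leaving out a library gave 4 to 5, 4 to 5 and, for liver against muscle, 3 to 4. For the difference of the diet effect between liver and eWAT it was 2, and 1 with a pseudocount of 0.1, 1 with a pseudocount of 1, 0 without a filter, 0 after median-ratio scaling, 0 with voom and 4 with the study's libraries, and 0 to 3 with a library left out. The cause was not tested. The other counts stayed within 1.5 times.

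Of values of single members, 704 kept their direction and side of the threshold, 40 were weaker, 13 stronger and 10 reversed. *Serpina3g* in liver (0.04) became -0.014 after median-ratio scaling, -0.21 without mitochondrial genes, -0.20 in the study's libraries, and ran from -0.19 to 0.29 with a library left out. The muscle diet effect ran from -0.55 to 0.013 for *Serpina3c* and from -1.08 to 0.15 for *Serpina3k* with a library left out. The difference between liver and muscle for *Serpina3c* (0.16) became -0.045 with a pseudocount of 0.1 and -0.68 with voom, and ran from -0.15 to 0.42. With the replicate number as a block, or the mouse as a random block (correlation 0.07 in the CON tissues and 0.02 over all 18 libraries), the members called numbered 0 for each diet effect and 2 for the difference between liver and eWAT, and no other call of a member was changed. In liver and eWAT same-numbered libraries deviated by r from -0.47 to 0.41. Depth limits *Serpina3b*, *Serpina3f*, *Serpina3g* and all muscle values.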
